A study of Mus musculus with 12 samples.

Results

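Signals of 10 genes for Fc receptors, ITAM adaptors and related receptors of myeloid cells were examined in colon tissue of 12 mice. The genes were chosen by name as a functional family, and each was found on the array with 1 probe set that names 1 gene, out of 19938 genes measured. They were the IgG receptors Fcgr1, Fcgr2b, Fcgr3 and Fcgr4, the adaptors Fcer1g and Tyrobp, the amplifying receptor Trem1, and the C-type lectin receptors Clec4d, Clec4e and Clec7a. All mice were male wild-type C57BL/6 mice that entered the protocol at 7 weeks of age, and the labels give an age of 8 weeks, 3 days. There were 4 groups of 3 mice, with 1 array per mouse. Control mice drank water. Control+L-Arg mice drank water and then 1% L-arginine (L-Arg), an amino acid, for the last 4 days. DSS mice drank 4% dextran sulfate sodium (DSS), a polymer that injures the colonic epithelium, for 6 days and then water for 4 days. DSS+L-Arg mice had the same DSS and then 1% L-Arg for 4 days. Colons were taken on day 10, when the injury had had 4 days to recover, and mice in extreme distress or with severe weight loss had been euthanized before that by the methods. The study asked whether L-Arg given after DSS alters the response of the colon.

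Receptors for the constant part of antibodies, and several receptors for sugars and lipids of microbes, have no signaling part of their own and pair with a small adaptor in the membrane. The adaptors Fcer1g (the Fc receptor gamma chain) and Tyrobp (DAP12) carry an immunoreceptor tyrosine-based activation motif (ITAM), which is phosphorylated after the receptor is engaged and then recruits the kinase Syk. Fcgr2b carries an inhibitory motif (ITIM) instead and restrains the activating receptors, and in the colon these receptors are borne mostly by neutrophils, monocytes and macrophages.

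The labelled tissue was checked with 10 markers of colon epithelium, whose median signal was between 12.2 and 12.4 on the log2 scale on every array. Values are log2 signals by robust multichip average (RMA), on which a difference of 1 is a 2-fold change. The numbers 1 to 3 of the mice come from the labels, which call them biological replicates. In tissue, more cells of a type and more RNA per cell cannot be told apart, and a signal of 1 gene is not set against that of another, since probes differ in brightness.

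Both adaptors were higher in DSS mice than in all other mice. Fcer1g had signals of 7.20, 8.14 and 7.77 in the control mice, 8.11, 7.79 and 8.41 in the control+L-Arg mice, 9.89, 9.42 and 11.18 in the DSS mice, and 8.25, 8.04 and 8.25 in the DSS+L-Arg mice. The DSS mice shared no range with the other 9 mice, and mouse 3 of the DSS group was the highest. Fcer1g was 2.46 log2 higher in DSS than in control mice (SE 0.38, 5.50-fold, limma adjusted p = 0.0065). It was 1.98 log2 lower in DSS+L-Arg than in DSS mice (adjusted p = 0.0462), a call that was kept in 4 of the 12 fits that leave out 1 mouse and lost with a trended and robust prior (limma adjusted p = 0.067). It was 0.48 log2 above control in DSS+L-Arg mice (adjusted p = 0.622).

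Tyrobp, the adaptor of Trem1 and of other receptors, had 7.06, 7.46 and 7.39 in the control mice and 7.58, 7.01 and 7.73 in the control+L-Arg mice. It had 9.21, 8.87 and 10.11 in the DSS mice, and 7.67, 7.76 and 7.55 in the DSS+L-Arg mice. The DSS mice stood apart from all others, and the other groups overlapped except that DSS+L-Arg lay just above control. The difference between DSS and control was 2.10 log2 (SE 0.28, 4.28-fold, limma adjusted p = 0.0030), and DSS+L-Arg was 1.74 log2 below DSS (adjusted p = 0.0246).

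The activating IgG receptors need Fcer1g for signaling. Fcgr4, a receptor for IgG2 antibodies on neutrophils and monocytes, had 4.72, 4.93 and 4.62 in the control mice and 4.85, 5.17 and 5.11 in the control+L-Arg mice. It had 6.66, 6.22 and 7.35 in the DSS mice, and 5.38, 5.24 and 5.09 in the DSS+L-Arg mice. The DSS mice were above all others, and the DSS+L-Arg mice lay above the control mice and overlapped the control+L-Arg mice. Fcgr4 was 1.99 log2 higher in DSS than in control mice (SE 0.23, 3.96-fold, limma adjusted p = 0.0016) and 1.51 log2 lower in DSS+L-Arg than in DSS mice (adjusted p = 0.0193). Its difference of 0.48 log2 between DSS+L-Arg and control was not called (adjusted p = 0.415).

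Fcgr3, the low-affinity receptor for IgG complexes, had 6.39, 6.96 and 6.58 in the control mice and 6.85, 6.14 and 7.26 in the control+L-Arg mice. It had 8.14, 8.35 and 9.49 in the DSS mice, and 7.09, 7.03 and 6.98 in the DSS+L-Arg mice. The DSS mice were again above all others. The difference between DSS and control was 2.02 log2 (SE 0.34, 4.05-fold, limma adjusted p = 0.0096). The difference of 1.62 log2 by which DSS+L-Arg lay below DSS was not called (adjusted p = 0.064), although no DSS+L-Arg mouse reached a DSS mouse.

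Fcgr1, the high-affinity IgG receptor of monocytes and macrophages, moved least among the 4 IgG receptors. Its signals were 5.84, 5.81 and 5.60 in the control mice, 5.79, 5.95 and 5.92 in the control+L-Arg mice, 6.19, 6.09 and 6.53 in the DSS mice, and 5.98, 5.81 and 5.85 in the DSS+L-Arg mice. The lowest DSS mouse, at 6.09, lay just above the highest of the other mice, at 5.98. The difference between DSS and control was 0.52 log2 (SE 0.12, 1.43-fold, limma adjusted p = 0.038), and the difference of DSS+L-Arg from DSS was -0.39 log2 (adjusted p = 0.206).

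Fcgr2b, the inhibitory IgG receptor, changed about as much as Fcgr3 and Fcgr4. It had 6.22, 6.65 and 6.47 in the control mice and 6.72, 6.43 and 7.39 in the control+L-Arg mice. It had 8.19, 8.22 and 9.13 in the DSS mice, and 6.75, 6.99 and 6.69 in the DSS+L-Arg mice. The DSS mice stood above all others, and mouse 3 of the control+L-Arg group was the highest of the rest. The difference was 2.06 log2 between DSS and control (SE 0.27, 4.18-fold, limma adjusted p = 0.0031) and -1.70 log2 between DSS+L-Arg and DSS (adjusted p = 0.0254). The genes Fcgr2b, Fcgr4 and Fcgr3 lie side by side on chromosome 1, in that order with no other protein-coding gene between them, and Fcgr2b and Fcgr3 are closely similar in sequence, so their probe sets may share signal.

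**Figure D1:**
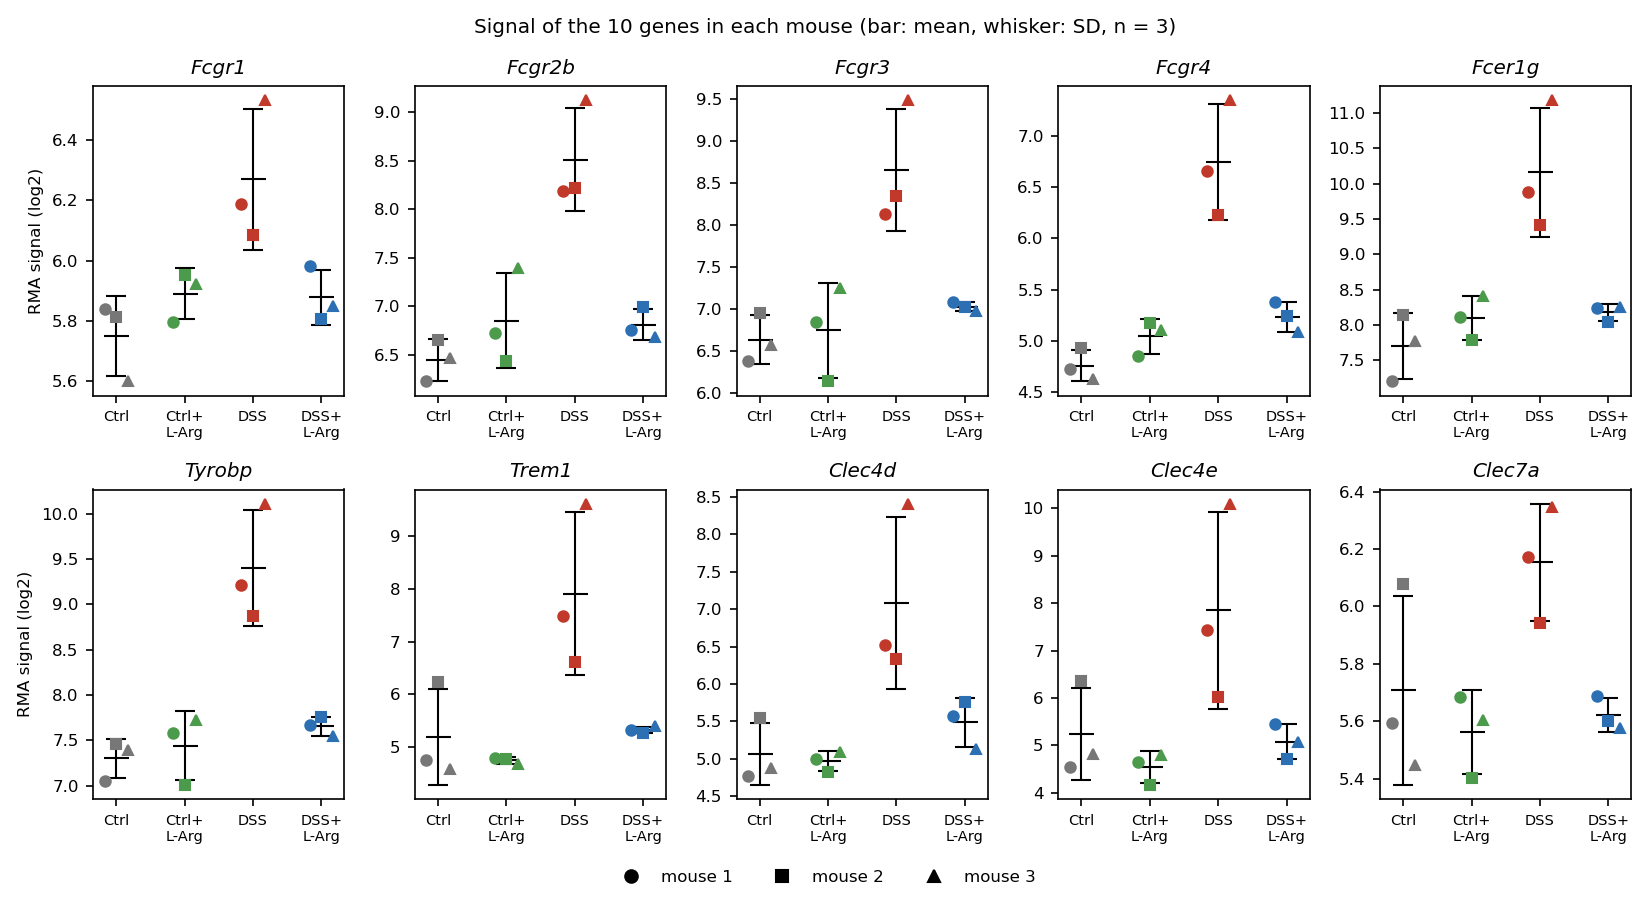
RMA signal (log2, vertical axis of each panel) of the 10 genes in the 4 groups, with 1 point per mouse, the bar at the mean and the whisker as SD (n = 3). The DSS mice lie above all other mice in every panel except those of Clec4e and Clec7a, where the groups overlap.

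Trem1, an amplifying receptor of neutrophils and monocytes that signals through Tyrobp, had 4.75, 6.23 and 4.59 in the control mice and 4.79, 4.78 and 4.68 in the control+L-Arg mice. It had 7.48, 6.62 and 9.62 in the DSS mice, and 5.32, 5.26 and 5.40 in the DSS+L-Arg mice. Control mouse 2 was well above the other control mice, and DSS mouse 3 well above the other DSS mice. The difference between DSS and control was 2.72 log2 (SE 0.62, 6.58-fold, limma adjusted p = 0.035). The difference of -2.58 log2 between DSS+L-Arg and DSS was not called (adjusted p = 0.105).

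The lectin receptors Clec4d (MCL) and Clec4e (Mincle) bind glycolipids of mycobacteria and fungi and signal through Fcer1g, and their genes are neighbors on chromosome 6. Clec4d had 4.77, 5.54 and 4.88 in the control mice and 5.0, 4.82 and 5.08 in the control+L-Arg mice. It had 6.52, 6.33 and 8.41 in the DSS mice, and 5.58, 5.75 and 5.12 in the DSS+L-Arg mice. Clec4d was higher in all DSS mice than in any other mouse. The difference from control was 2.03 log2 (SE 0.44, 4.07-fold, limma adjusted p = 0.029), and DSS+L-Arg differed from DSS by -1.60 log2 (adjusted p = 0.156).

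Clec4e had 4.54, 6.36 and 4.83 in the control mice and 4.66, 4.17 and 4.81 in the control+L-Arg mice. It had 7.43, 6.02 and 10.10 in the DSS mice, and 5.45, 4.72 and 5.07 in the DSS+L-Arg mice. DSS mouse 2 was below control mouse 2, so the groups overlapped, and the 3 DSS mice spanned 4.08 log2. The mean difference of 2.61 log2 between DSS and control was not called (SE 0.81, limma adjusted p = 0.095), nor was the difference of -2.77 log2 between DSS+L-Arg and DSS (adjusted p = 0.180). Clec4e was called in DSS without DSS mouse 2 (adjusted p = 0.026).

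Clec7a (Dectin-1), a receptor for fungal beta-glucans with a signaling motif in its own tail, had the smallest difference between DSS and control among the 10 genes. It had 5.59, 6.08 and 5.45 in the control mice and 5.68, 5.40 and 5.60 in the control+L-Arg mice. It had 6.17, 5.94 and 6.35 in the DSS mice, and 5.69, 5.60 and 5.58 in the DSS+L-Arg mice. DSS and control overlapped through control mouse 2. The difference of 0.45 log2 was not called (SE 0.16, limma adjusted p = 0.139), and it was called without control mouse 2 (adjusted p = 0.040). All DSS+L-Arg mice lay below the DSS mice, with a difference of -0.53 log2 that was not called (adjusted p = 0.187).

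**Figure D2:**
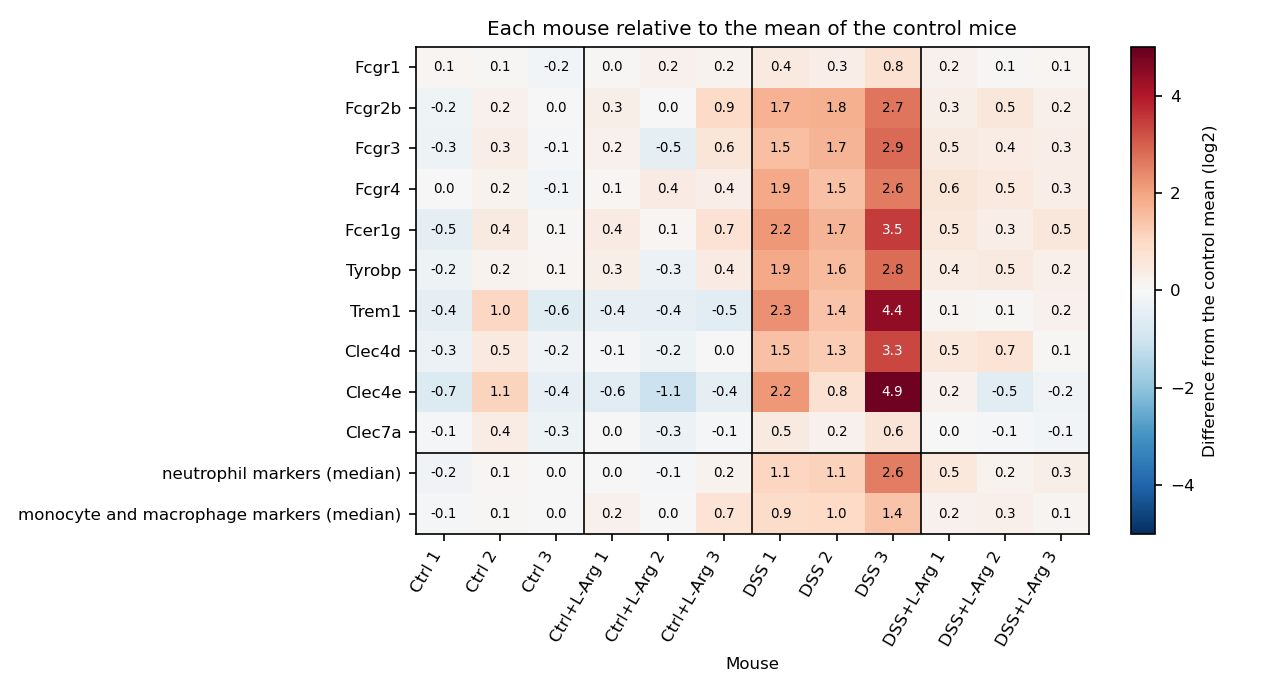
Difference of each mouse (columns) from the mean of the control mice (log2, color) for the 10 genes and, under the line, the medians of the neutrophil and of the monocyte and macrophage markers. DSS mouse 3 has the highest value among the DSS mice for all 10 genes, against 33.1% of all genes. It lies from 0.29 log2 above the mean of the other DSS mice for Clec7a to 3.38 for Clec4e. Control mouse 2 has the highest value among the control mice for 9 of the 10 genes, against 32% of all genes.

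Over the family, 8 of 10 genes were higher in DSS than in control mice, where 1.80% of all genes were called higher and 2.23% lower. The median difference was 2.04 log2, beside -0.01 over all genes. At the rule of the study's methods, an unadjusted p under 0.01 with a fold above 2, 8 genes passed (1.32% of all genes), with Clec4e in and Fcgr1 out, and 7 passed with SAM, the test that the methods name (1.22%). The DSS mice lay above all control mice in 8 of 10 genes, against 10.7% of all genes, and above all 9 other mice in the same count, against 2.17%. The count of 8 was 5 without control mouse 1 or without control mouse 3, when Fcgr1, Trem1 and Clec4d were lost, and it was 3 (Fcgr2b, Fcgr4 and Tyrobp) when the model held the 2 groups alone. Of the 12 fits that leave out 1 mouse, Clec4d was called in 10 and the other 5 genes in all 12. Trem1 was called in 7, being lost also without control+L-Arg mouse 1 and DSS+L-Arg mouse 2 or 3. Fcgr1 was called in 4, which left out control+L-Arg mouse 2, DSS mouse 1, DSS mouse 2 or DSS+L-Arg mouse 1.

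In DSS+L-Arg against DSS mice, 4 of 10 genes were lower (Fcgr2b, Fcgr4, Fcer1g and Tyrobp), where 0.522% of all genes were called lower and 0.115% higher. This comparison and that of DSS with control share the DSS mice. The median difference was -1.66 log2, beside 0.06 over all genes. The 3 DSS+L-Arg mice lay below all 3 DSS mice in all 10 genes (5.60% of all genes), and 8 genes passed the rule of the methods (0.843%). The count of 4 was 1, Fcgr4, without control+L-Arg mouse 1. Fcer1g was also lost without any 1 of the control mice or control+L-Arg mouse 3, with adjusted p up to 0.082 in limma. The count was 0 without any 1 of the DSS+L-Arg mice, and 0 when the model held these groups alone.

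None of the 10 genes was called between DSS+L-Arg and control mice in limma, where 0.0301% of all genes were called higher and 0.0351% lower, and 0 of 10 reached an unadjusted p of 0.05 (12.6% of all genes). SAM with the rule of the methods gave 0 as well (0.236% of all genes higher, 0.326% lower). The differences ran from -0.16 log2 for Clec4e to 0.48 for Fcgr4, with a median of 0.36, and the groups did not overlap in Fcgr2b, Fcgr3, Fcgr4 and Tyrobp, all higher (13.5% of all genes). The confidence interval of Fcer1g reached from -0.35 to 1.30 log2.

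L-Arg without DSS gave no called gene of the family in limma, as in the whole array (0.00% of genes), and 0 of 10 genes reached an unadjusted p of 0.05 (3.44% of all genes). The differences of control+L-Arg from control ran from -0.70 log2 for Clec4e to 0.40 for Fcgr2b. Between DSS+L-Arg and control+L-Arg mice, 0 of 10 genes were called (0.201% of all genes higher, 0.105% lower), with differences from -0.04 log2 for Fcgr2b to 0.58 for Trem1 and 0 genes at an unadjusted p of 0.05 (15.6% of all genes). Trem1 and Clec4d did not overlap between these groups, both higher with DSS (12.9%). SAM gave 0 genes of the family in the first comparison (0.0100% of all genes higher, 0.00% lower) and 0 in the second (0.406% and 0.507%).

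The difference between the effect of DSS with and without L-Arg was tested as an interaction, and 0 of 10 genes passed in limma (0.0652% of all genes lower, 0.0100% higher). At an unadjusted p under 0.05 there were 8 of 10 (10.8% of all genes). The values closest to the threshold were -1.79 log2 for Fcgr4 (adjusted p = 0.068) and -2.10 log2 for Fcgr2b (adjusted p = 0.077). The count was 3 when arrays were weighted by quality, 3 without DSS mouse 3, 2 without control+L-Arg mouse 2 and 1 without DSS mouse 2.

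**Figure D3:**
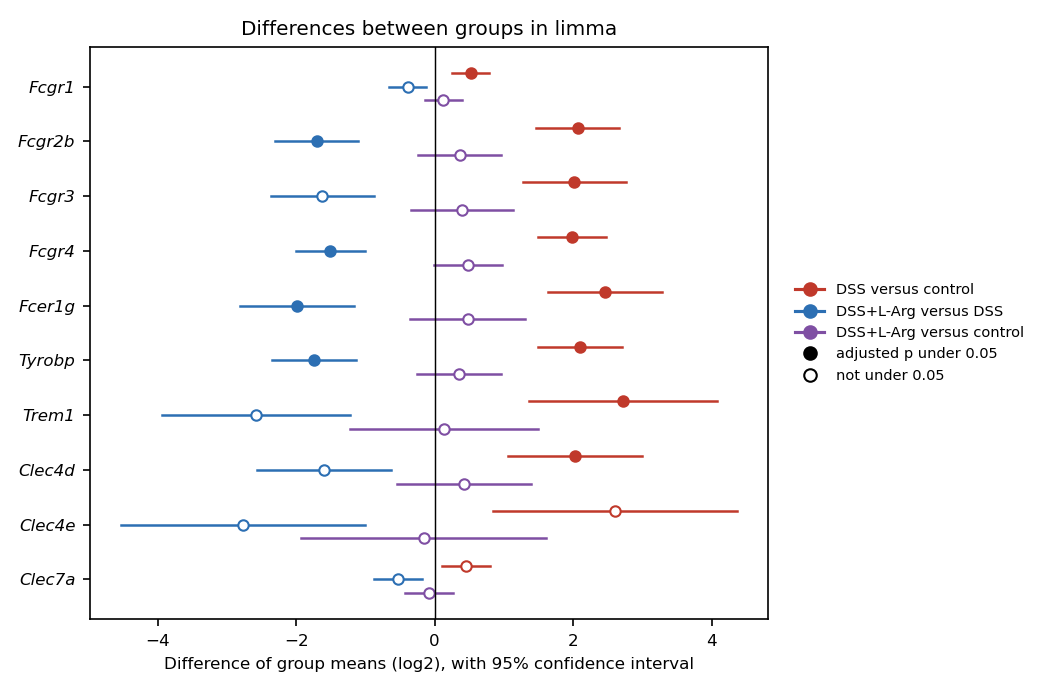
Differences of group means (log2, horizontal axis) for the 10 genes in 3 comparisons, with the 95% confidence interval of limma as whiskers and filled points for adjusted p under 0.05. In DSS against control 8 genes are called, in DSS+L-Arg against DSS 4, and in DSS+L-Arg against control none.

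The balance of activating and inhibitory IgG receptors was followed in each mouse as the mean of Fcgr1, Fcgr3 and Fcgr4 minus Fcgr2b, each relative to its control mean. It was 0.16, -0.02 and -0.14 log2 in the control mice, -0.16, 0.05 and -0.57 in the control+L-Arg mice, -0.46, -0.60 and -0.60 in the DSS mice, and 0.13, -0.24 and 0.02 in the DSS+L-Arg mice. The DSS mice lay below all control and all DSS+L-Arg mice, and control+L-Arg mouse 3 lay within their range. The difference was -0.56 log2 between DSS and control and 0.53 between DSS+L-Arg and DSS, each with an exact two-sided permutation p of 0.1, the smallest that 3 against 3 mice allow (0.25 adjusted over 5 comparisons). Without Fcgr1, an alternative chosen after the values were seen, the difference of DSS from control was -0.062 log2 and that of DSS+L-Arg from DSS was 0.14. In that form the DSS mice were at -0.04, -0.19 and 0.04 and overlapped the control mice, at 0.08, 0.04 and -0.12. They also overlapped the DSS+L-Arg mice, at 0.23, -0.11 and 0.10. Signal that the probe sets of Fcgr2b and Fcgr3 may share would enter both forms.

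**Figure D4:**
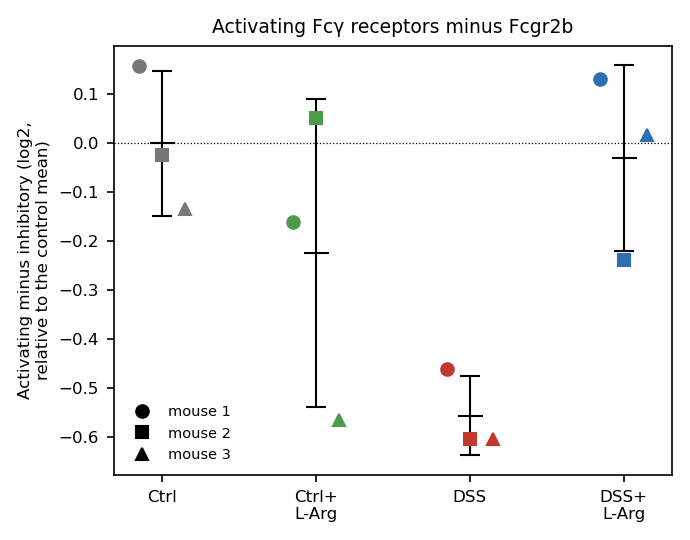
Mean of Fcgr1, Fcgr3 and Fcgr4 minus Fcgr2b (log2, relative to the control mean, vertical axis) in the 4 groups, with 1 point per mouse. The 3 DSS mice sit between -0.60 and -0.46, below all control and DSS+L-Arg mice, while control+L-Arg mouse 3, at -0.57, is within that range. Without Fcgr1 (not shown) the DSS mice overlap the control mice and the DSS+L-Arg mice.

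Part of the markers of neutrophils and of monocytes and macrophages were also higher in DSS mice. Of 17 neutrophil markers measured, 8 were higher in DSS than in control mice, led by Ngp (4.82 log2), Lcn2 (4.34) and S100a8 (3.91), and the 9 not called included Mpo (-0.02) and Ceacam10 (-1.49). Their median, relative to control, was between -0.16 and 0.12 log2 in the control mice and 0.00, -0.07 and 0.17 in the control+L-Arg mice. It was 1.08, 1.14 and 2.56 in the DSS mice, and 0.53, 0.18 and 0.30 in the DSS+L-Arg mice. Of 18 monocyte and macrophage markers, 10 were higher, led by Mpeg1 (2.13), Itgam (2.03) and Cybb (1.74), and the 8 not called included Cx3cr1 (-0.11) and Mertk (-0.14). Mpo, Ceacam10, Cx3cr1 and Mertk are the markers with a difference below 0 and were named after their values were seen. The median of this list, relative to control, was 0.92, 1.01 and 1.44 in the DSS mice and 0.21, 0.25 and 0.13 in the DSS+L-Arg mice. In the control+L-Arg mice, which had no DSS, it was 0.22, 0.00 and 0.68, a range that holds the DSS+L-Arg values. Lower in DSS+L-Arg than in DSS mice were 4 neutrophil markers (Ngp, Lcn2, Mmp8 and S100a9) and 4 of the other list (Itgam, Mpeg1, Mrc1 and Msr1, the last 2 named after their values were seen). For each marker, DSS mouse 3 was set against the mean of the other DSS mice. The median of these differences was 0.96 log2 for neutrophil markers and 0.23 for monocyte and macrophage markers. The same difference was 3.38 for Clec4e, 2.57 for Trem1, 1.99 for Clec4d, 1.53 for Fcer1g and 1.25 for Fcgr3. It was 1.07 for Tyrobp, 0.92 for Fcgr2b, 0.91 for Fcgr4, 0.39 for Fcgr1 and 0.29 for Clec7a. A value of 1 gene is unlike the median of a list, which also holds markers that were not called. The part of these cells in the signals of the receptors was not tested. Whether Itgam and Cybb come from neutrophils too, or Lcn2 from cells other than neutrophils, was not tested either. Among markers of other cells, limma called 0 of 10 dendritic cell, 0 of 9 NK cell and 0 of 9 B cell markers in DSS against control. It also called 0 of 8 T cell and 0 of 10 epithelial markers. These counts are near the shares over all genes (1.80% higher, 2.23% lower). Of 10 mast cell and basophil markers, 2 were higher, the proteases Mcpt1 (2.31) and Mcpt2 (2.81). The other 8 were not called, and the median of that list was 0.23 log2.

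Genes around the family were counted from lists by role. Over all genes, 1.80% were called higher and 2.23% lower in DSS against control. In DSS+L-Arg against DSS these shares were 0.115% and 0.522%, and a short list with 0 called genes is near them. Of 17 measured receptors of myeloid cells that also pair with ITAM adaptors, 2 were higher in DSS mice, Clec4n (Dectin-2) by 1.59 log2 (limma adjusted p = 0.0026) and Cd300c2 by 0.58. Both were lower in DSS+L-Arg than in DSS mice, by -1.22 and -0.61 log2. Trem2, a receptor of macrophages that pairs with Tyrobp, differed by 0.25 log2 and was not called. The median of this list was 0.44 log2, against 2.04 for the 10 genes.

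Another list held receptors of myeloid cells grouped as inhibitory like Fcgr2b, and whether each mouse protein carries an ITIM was not checked. Of 17 measured, 6 were higher in DSS than in control mice, led by Cd33 (2.29 log2), Lilrb4a (2.21) and Pirb (1.95). In DSS+L-Arg against DSS mice 3 were lower, which were Cd33 (-2.35), Clec4a1 (-1.24) and Sirpa (-1.24), the last 2 named after their values were seen. Other Fc receptors, for IgE, IgA, IgM and transport of antibodies among others, gave 0 of 13 in both comparisons in limma. This is near the shares over all genes (1.80% higher and 2.23% lower, then 0.115% and 0.522%). Fcer1a, the IgE-binding chain, was at -0.03 log2 in DSS against control.

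Downstream of the adaptors, 3 of 24 genes listed as kinases and scaffolds were higher in DSS mice. These were Lcp2 (SLP-76) by 1.46 log2, Dok3 by 0.65 and Vav1 by 0.58. Dok3 was counted here, although its relatives Dok1 and Dok2 were listed with genes that limit the pathway. Syk, the kinase recruited by ITAMs, differed by 0.41 log2 (limma adjusted p = 0.28) and Card9, its partner for lectin receptors, by 0.15, and neither was called. Of the 12 genes listed as limiting the pathway 1 was higher, Ptpn22 by 0.63, while Ptpn6 (SHP-1) was at -0.02 and Inpp5d (SHIP-1) at 0.66 (adjusted p = 0.081). In DSS+L-Arg against DSS mice Vav1 was lower (-0.81 log2), and 0 of the 12 limiting genes were called. Of 7 signaling subunits and adaptors listed for lymphocytes 0 were called in either comparison. Both counts of 0 are near the shares over all genes. The adaptor Hcst (DAP10), which is in that list, was at -0.08 in DSS against control. Of 7 candidate ligands measured, S100a8 and S100a9 were higher by 3.91 and 3.57 log2, and both are also in the neutrophil list, while Pglyrp1, a ligand of Trem1, differed by 0.55 (adjusted p = 0.18).

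**Figure D5:**
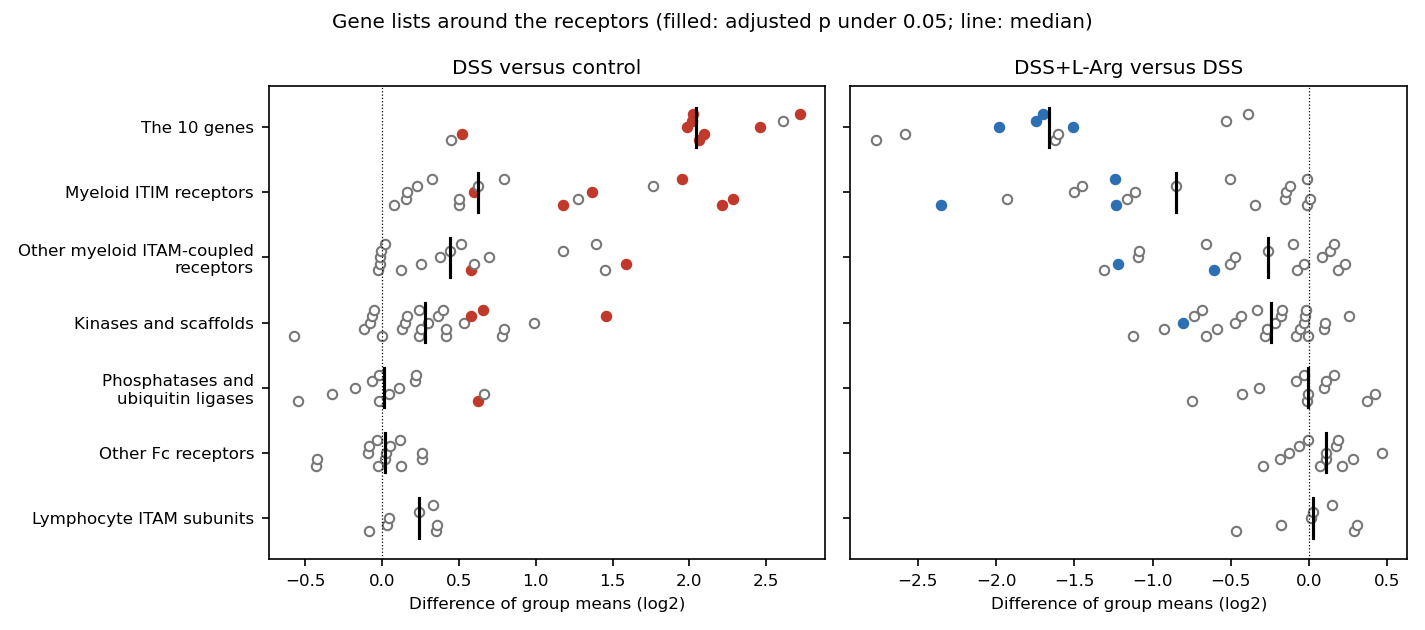
Differences of group means (log2, horizontal axis) of the genes of each list for DSS against control and DSS+L-Arg against DSS, with filled points for adjusted p under 0.05 and a line at the median of the list. The 10 genes have a median of 2.04 and -1.66, and the other Fc receptors a median near 0 in both.

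Genes whose signal over the 12 arrays was most like the mean of the family, each gene centred on its own mean, were Lilrb4a, an inhibitory receptor (Pearson r = 0.994), the integrin chain Itgam (0.990), the neutrophil collagenase Mmp8 (0.988), Csf2rb2 (0.987), Slc15a3 (0.985), Inhba (0.984), Itgb2 (0.984) and Igsf6 (0.983). The 12 arrays share the 4 groups, so these values describe a shared pattern over groups and mice.

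Promoter sequences from RefSeq (GRCm38.p6, from 250 bases before to 50 bases after the start of the gene) were held by the table for 9 of the 10 genes, Tyrobp being the one without an entry. The core of the binding site of PU.1, a transcription factor of myeloid cells, was searched as GAGGAA on both strands, and 7 of the 9 genes held it in a window, against 31.3% of 27025 genes. The AP-1 site TGANTCA was held by 0 of 9 genes, against 8.97% of all genes. The last 100 bases before the start are shown for 3 IgG receptors that were called higher in DSS mice and hold the motif, for Clec4e and Clec7a, which hold it and were not called, and for Fcer1g, which was called higher and has no match. They are given 5′ to 3′ on the strand of the gene, with the match to GAGGAA or its reverse complement TTCCTC in capitals. Fcgr3 and Clec7a have 2 windows each, of which the one furthest upstream is shown, and that of Fcgr3 starts inside the outer limit of the gene.
Fcgr1, chr3:96293970-96294069, minus strand: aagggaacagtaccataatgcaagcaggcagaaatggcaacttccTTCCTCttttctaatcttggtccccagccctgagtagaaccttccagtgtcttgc
Fcgr3, chr1:171059404-171059503, minus strand: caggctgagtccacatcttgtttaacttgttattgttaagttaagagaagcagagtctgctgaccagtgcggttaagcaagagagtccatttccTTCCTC
Fcgr4, chr1:171018826-171018925, plus strand: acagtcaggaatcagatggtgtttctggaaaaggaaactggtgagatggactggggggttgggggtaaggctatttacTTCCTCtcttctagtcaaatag
Clec4e, chr6:123289872-123289971, minus strand: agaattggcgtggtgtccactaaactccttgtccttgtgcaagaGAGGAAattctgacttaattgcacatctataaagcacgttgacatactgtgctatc
Clec7a, chr6:129472786-129472885, minus strand: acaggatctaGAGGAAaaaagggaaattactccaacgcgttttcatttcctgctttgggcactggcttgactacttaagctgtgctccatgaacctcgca
Fcer1g, chr1:171234350-171234449, minus strand: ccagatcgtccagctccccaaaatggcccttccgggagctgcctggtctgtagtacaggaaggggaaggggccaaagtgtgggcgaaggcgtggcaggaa
The matches lay 55 bases before the start in Fcgr1, 22 in Fcgr4, 56 in Clec4e and 90 in Clec7a, and that of Fcgr3 lay right at the start. A match describes the letters alone, and Fcgr2b, which rose as much as Fcgr4, had none in its window.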

How the data were processed

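RNA of 12 colons was measured on Affymetrix mouse Gene ST arrays, 1 array per mouse, and a proximal and a distal piece were combined per colon. The authors deposited log2 signals per probe set, made with Affymetrix Expression Console 1.1 and RMA, which corrects background, quantile-normalizes and summarizes probes, and their notes name genome build mm9. Shifts common to most genes are removed by this step. Precision is set by how many mice were used, since an array has no depth. Of 35556 probe sets, those with several genes (1621) or absent from the platform table (12146) were left out, and the brightest probe set per gene was kept. A linear model with a mean for each group was fitted to all arrays (limma 3.58.1, R 4.3.3), and p-values were adjusted by Benjamini-Hochberg over 19938 genes, with a threshold of 0.05 for a call. limma's steps were tested on simulated data. Arrays of a group differed by over 0.01 log2 in at least 95.1% of genes, so none repeats another. The mouse numbers were checked as pairs by the correlation of deviations from group means. The labels do not say that they pair mice, and all 3 correlations exceeded 0.1 only for control+L-Arg against control (0.205, 0.477 and 0.261), where the fit with the number as a block called none of the 10 genes either. The 10 genes, the 15 other lists (190 of 209 listed genes measured) and the tests were chosen with earlier results of these data known. Named genes were the 10, up to 3 called genes per list with the largest change in DSS against control, 11 preset genes and the 8 most like the mean of the 10. Alternatives were SAM, other normalization, filters, priors, array weights, groups and blocks, and leaving out each mouse. Protein motifs were not analysed here. Tables and plots used Python 3.11.15, pandas 2.3.3 and matplotlib 3.10.9.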

Additional observations from a re-analysis of the deposited data

How the results depend on the processing

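With only the 2 groups compared in the fit, the genes called were 3 higher in DSS against control, 0 lower in DSS+L-Arg against DSS and 1 higher in DSS+L-Arg against control+L-Arg (Trem1), and with array weights 3 were lower in the interaction. Leaving out each mouse in turn gave 5 to 9 genes higher in DSS against control, 0 to 5 lower in DSS+L-Arg against DSS, and 0 to 3 lower in the interaction. With the replicate block the count for DSS against control was 6, since Fcgr1 (limma adjusted p = 0.063) and Trem1 (0.051) were lost. A trended and robust prior gave 7 genes higher in DSS against control, without Trem1 (0.056), and 3 lower in DSS+L-Arg against DSS, without Fcer1g (0.067). Without Fcgr1 the balance of activating over inhibitory receptors was -0.0624 log2 for DSS against control, 0.135 for DSS+L-Arg against DSS and 0.0727 for DSS+L-Arg against control, the last a change of sign from -0.03. With Fcgr1 kept, this last value ran from -0.11 to 0.0745 with mice left out. Signs changed only among differences that were not called. In DSS+L-Arg against control+L-Arg, Fcgr1 was 0.0475 and Fcgr2b 0.0192 with arrays centred on their medians, and Fcgr2b 0.0125 after further quantile normalization. With mice left out, that comparison ran from -0.0639 to 0.0240 for Fcgr1, -0.25 to 0.23 for Fcgr2b, -0.0234 to 0.54 for Fcgr3, -0.0817 to 0.23 for Fcer1g and -0.0236 to 0.12 for Clec7a. DSS+L-Arg against control ran from -0.17 to 0.66 for Trem1, -0.51 to 0.40 for Clec4e and -0.22 to 0.10 for Clec7a. Control+L-Arg against control ran from -0.14 to 0.42 for Fcgr3, -0.00721 to 0.35 for Tyrobp, -0.74 to 0.0791 for Trem1, -0.24 to 0.14 for Clec4d and -0.27 to 0.0417 for Clec7a. The causes were not tested.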
